A study of Homo sapiens with 6 samples.

Results

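SGK1, the gene of serum- and glucocorticoid-regulated kinase 1, was examined in HCT116, a long-established line of human colon carcinoma cells, after depletion of the nuclear receptor ERRα. Of the 1458 gene symbols that the authors' deposited comparison lists, SGK1 is 1. Its probe sets were found in 2 steps. First, 5 probe sets carry the name SGK1 in the authors' deposited table, each with the accession NM_005627. Second, the unbroken run of consecutive probe set identifiers around these 5 holds 15 probe sets, 8129678 to 8129692, out of 256161 that were used. The other 10 carry no gene name in the files, so that their assignment to SGK1 rests on their place in the run. All 15 had a value on every array and none was filtered out.

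The shERRalpha cells received a lentivirus with a short hairpin RNA against ERRα for 48 h, and the shscrambled cells one with a scrambled hairpin. Both groups were then kept in puromycin for 48 h in medium with 10% serum and without phenol red, and each has 3 arrays of total RNA that the labels call biological replicates. Nothing in the labels tells whether these came from separate infections, so the spread given here is that between samples and may be partly technical. A single hairpin label against ERRα is given, and loss of the receptor cannot be told apart from other effects of that hairpin. Values are log2 expression per probe set on Affymetrix whole-transcript arrays, and the number of arrays limits their precision.

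SGK1 encodes a serine/threonine kinase of the AGC family, a relative of the AKT kinases. It becomes active downstream of PI3-kinase, when mTORC2 and then PDK1 phosphorylate it, and it acts on targets such as the ubiquitin ligase NEDD4L and the FOXO transcription factors. Its messenger RNA and protein turn over quickly, and its transcription is known to be induced by serum, glucocorticoids, aldosterone and osmotic stress. In the epithelium of the distal colon it is known for its part in aldosterone-dependent sodium uptake.

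The RefSeq promoter table (GRCh38.p14) holds 3 start sites for SGK1, all on the minus strand of chromosome 6. They are shown because the perturbed protein is a transcription factor and because the gene has alternative first exons, which the files do not tie to probe sets. Each line gives the 250 bases before a start site, 5′ to 3′, from the most distal to the most proximal start of the gene. Capitals mark matches to the TATA box hexamer (TATAAA) and the GC box (GGGCGG), searched on both strands.
Distal start, chr6:134318113-134318362: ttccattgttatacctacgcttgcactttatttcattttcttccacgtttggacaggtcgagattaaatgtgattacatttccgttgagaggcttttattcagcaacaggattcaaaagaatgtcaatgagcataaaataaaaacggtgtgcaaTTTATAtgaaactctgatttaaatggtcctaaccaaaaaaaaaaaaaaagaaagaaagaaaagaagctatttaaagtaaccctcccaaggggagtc
Middle start, chr6:134177862-134178111: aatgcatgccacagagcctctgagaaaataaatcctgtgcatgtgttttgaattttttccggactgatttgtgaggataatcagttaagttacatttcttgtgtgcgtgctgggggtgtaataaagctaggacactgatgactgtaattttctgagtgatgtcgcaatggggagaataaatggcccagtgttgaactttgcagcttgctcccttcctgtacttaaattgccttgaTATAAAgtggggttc
Proximal start, chr6:134174867-134175116: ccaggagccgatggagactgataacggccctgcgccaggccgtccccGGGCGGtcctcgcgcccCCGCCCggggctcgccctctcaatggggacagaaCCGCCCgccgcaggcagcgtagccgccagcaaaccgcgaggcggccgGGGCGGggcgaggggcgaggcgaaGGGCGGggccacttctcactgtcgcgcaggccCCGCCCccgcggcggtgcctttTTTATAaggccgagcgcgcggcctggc

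The 3 promoters differ in composition. G and C make up 33.6% of the distal, 41.6% of the middle and 76.0% of the proximal window, against a median of 58.0% over the 35116 promoters of the table. Each window holds 1 match to the TATA box hexamer TATAAA, which is found in 10.7% of all promoters. The match begins 96, 15 and 27 bases before the distal, middle and proximal start. In the distal and proximal windows it is the reverse complement, TTTATA. Whether any match acts as a TATA box was not tested. GC boxes, found in 42.6% of all promoters, occur 6 times in the proximal window and 0 times in the others. The response element of the ERR receptors, searched as TNAAGGTCA, has 0 matches in these windows and occurs in 0.854% of all promoters, and its core AGGTCA, which lies within that element, has 0 matches here and occurs in 12.1% of promoters. The arm TGTTCT of the glucocorticoid response element also has 0 matches in these windows and occurs in 12.4% of promoters. These counts describe the letters of the printed windows alone.

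The arrays themselves were compared first. Their median values were 4.28 to 4.43 log2 units. The array of shERRalpha replicate 1 stood apart, with correlations across probe sets of 0.867 to 0.877 with the other 5 arrays, against 0.933 to 0.947 for the 10 pairs among those. ESRRA, the gene that the hairpin targets, was lower with the hairpin at its 2 listed probe sets (2.38 ± 0.20 log2 units in shERRalpha and 5.08 ± 0.21 in shscrambled, SD, n = 3 each). These were listed for their difference on these same arrays, and the shERRalpha level was near background. The log2 change was -2.71 at these probe sets and -1.84 for the median of the ESRRA run. In bulk RNA, fewer cells that express a gene and less RNA per cell cannot be told apart. Of 12 epithelial markers, CDH1 and CLDN7 were listed lower and kept levels of 5.63 and 7.19 log2 units in shERRalpha, against 7.69 and 8.42 in shscrambled. These 2 make up 16.7% of that list, while 5.12% of all runs of at least 3 probe sets held a probe set listed lower and 2.86% one listed higher. Of 12 fibroblast and endothelial markers 2 were listed higher and 2 lower (16.7% each), and of 10 leukocyte markers 1 was listed higher (10.0%). Each of these listed fibroblast, endothelial and leukocyte markers rested on 1 probe set, and the medians of their runs changed by -0.11 to 0.43. All of them but COL3A1 were near background in 1 of the groups. Markers that are not listed carry no name in the files. All samples are of the HCT116 line and the labels name no other cell type. A part of other cell types in the SGK1 values was not tested.

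SGK1 was higher in the shERRalpha cells. The median of its 5 listed probe sets was 6.28, 6.32 and 6.25 log2 units on shERRalpha arrays 1, 2 and 3, against 4.44, 4.55 and 4.50 on shscrambled arrays 1, 2 and 3. The groups are far apart compared with the spread within them, and shERRalpha replicate 1 lies between the other two shERRalpha arrays. The means were 6.28 ± 0.03 in shERRalpha and 4.50 ± 0.06 in shscrambled (SD, n = 3 each), a log2 change of 1.79 (SE 0.20), or 3.45-fold. These probe sets were chosen for this very difference: the table takes a probe set when its unadjusted p-value is below 0.01 and its change on these same arrays reaches 2-fold. The difference, its small spread and the separation are therefore a description, no test is given for them, and the fold is biased upward by the selection.

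The rule lists 0.271% of all probe sets as higher in shERRalpha and 0.557% as lower. Of the 15 probe sets of the SGK1 run it lists 5 (33.3%), all higher, a share from which nothing is read because the gene was chosen by it. In limma with Benjamini-Hochberg adjustment 0 of the 256161 probe sets passed an adjusted p of 0.05, those of SGK1 included, while 18539 (7.24%) had an unadjusted p under 0.05. The equal-variance test behind the deposited table also gave 0 after adjustment, and 18564 at an unadjusted p under 0.05.

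Among the listed probe sets, 8129689 had the highest fold. It had 4.38, 4.47 and 4.18 log2 units on shERRalpha arrays 1 to 3, against 0.60, 1.95 and 1.62 on the shscrambled arrays, a log2 change of 2.95 (SE 0.40). All 3 shscrambled values lay under 2.41 log2 units, the 25th percentile of the mean levels of all probe sets, so the signal there was near background and the 7.74-fold change is not exact. The scrambled arrays also spread more here than at the other listed probe sets, with an SD of 0.70. It met the rule of the deposited table with all arrays but no longer when any 1 of the 3 shERRalpha arrays was left out, a step that also removes a degree of freedom.

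Probe set 8129678, the first of the run, had 6.62, 6.88 and 6.65 log2 units in shERRalpha, against 4.33, 4.55 and 5.03 in shscrambled. The lowest shERRalpha array was 1.60 log2 units above the highest shscrambled array, and the log2 change was 2.08 (SE 0.29), or 4.23-fold. Probe set 8129681 had the tightest values, 6.28, 6.31 and 6.25 log2 units in shERRalpha and 4.66, 4.52 and 4.43 in shscrambled, a 3.35-fold change. Both groups were well above the 25th percentile at these probe sets, and neither pair of groups overlapped.

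Probe set 8129683 had 6.28, 6.50 and 6.71 log2 units in shERRalpha, against 4.87, 4.93 and 4.93 in shscrambled, a log2 change of 1.58 (SE 0.26). Probe set 8129685 had 6.01, 6.32 and 5.68 log2 units in shERRalpha, against 4.44, 4.58 and 4.50 in shscrambled, a log2 change of 1.50 (SE 0.28). At both, the shscrambled arrays nearly coincided and the shERRalpha arrays spread wider, without overlap. Together the 5 listed probe sets ranged from 2.83-fold to 7.74-fold. Of these, 8129678, 8129681, 8129683 and 8129685 met the rule of the deposited table whichever single array was left out, but 8129685 no longer met it with an unequal-variance test, and 8129678 and 8129685 no longer with a replicate block. Nor did 8129689 under either.

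**Figure D1:**
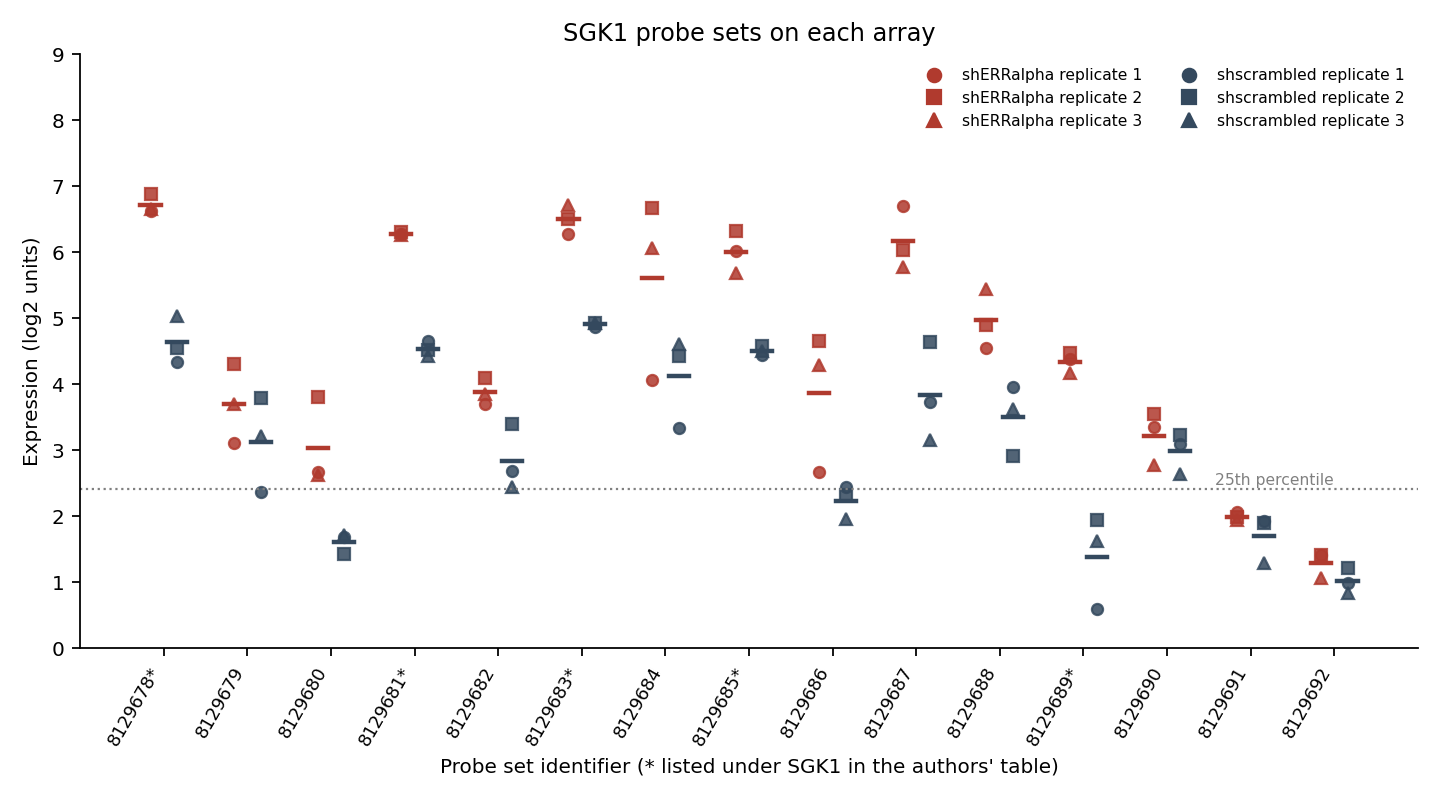
Expression in log2 units (vertical axis) of the 15 probe sets of the SGK1 run (horizontal axis) on each of the 3 shERRalpha arrays (red, left) and 3 shscrambled arrays (dark, right); short bars are group means, asterisks mark the 5 probe sets listed under SGK1, and the dotted line is the 25th percentile of all probe set means, 2.41. From 8129678 to 8129689 the red points lie mostly above the dark ones, while at the last 3 probe sets the groups lie close together.

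The 10 unlisted probe sets of the run were also higher on average. Their median per array was 3.23, 4.20 and 3.78 log2 units in shERRalpha, against 2.56, 3.08 and 2.54 in shscrambled. The groups did not overlap, but the gap was small, since the lowest shERRalpha array (replicate 1) and the highest shscrambled array (replicate 2) were at 3.23 and 3.08. The means were 3.74 ± 0.49 and 2.73 ± 0.30 (SD, n = 3 each), a log2 change of 1.01 (SE 0.29), or 2.01-fold. Within groups, the unlisted probe sets spread more than the listed ones, with median SDs of 0.46 against 0.15 log2 units in shERRalpha and 0.43 against 0.12 in shscrambled; the rule favours a small spread, so this difference follows in part from how the list was made.

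All 15 probe sets of the run had a higher mean in shERRalpha, a direction that 49.8% of all probe sets share. The changes ran from 0.23 to 2.95 log2 units with a median of 1.47, beside a median of -0.0029 over all probe sets. In 11 of the 15, every shERRalpha array lay above every shscrambled array, which held for 5.69% of all probe sets, while 8.37% were separated the other way. The 11 comprise the 5 listed probe sets and 6 of the 10 unlisted ones. Of these 6, 8129691 was separated by only 0.01 log2 units and lay below the 25th percentile in both groups. The mean was at least 2-fold higher at 11 of 15, including 6 of the 10 unlisted, against 3.72% of all probe sets, and 6.84% were at least 2-fold lower. The listed probe sets were taken for a change of at least 2-fold on these arrays. Their part of both counts was therefore largely set in advance, and only the unlisted ones can be set beside these shares. The unlisted ones lie in a run chosen for the listed ones. All probe sets of a run stem from the same RNA samples and are not independent replicates.

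Of the listed SGK1 probe sets, 8129689 was the nearest to the p-value limit, with an unadjusted p-value of 0.00208, and 8129685 the nearest to the fold limit, with a fold of 2.83, both from the authors' deposited table. Just outside the p-value limit stood 8129687, where the same equal-variance test gave an unadjusted p of 0.0104 despite a 5.01-fold change. That probe set had 6.70, 6.03 and 5.77 log2 units in shERRalpha, against 3.73, 4.64 and 3.16 in shscrambled. Its groups were 1.13 log2 units apart at the nearest arrays, and its log2 change of 2.32 (SE 0.46) exceeded that of 4 of the 5 listed probe sets.

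The unlisted probe sets between the listed ones shared the direction with more scatter. Probe set 8129680 had 2.67, 3.81 and 2.62 log2 units in shERRalpha, against 1.69, 1.43 and 1.72 in shscrambled, and 8129682 had 3.69, 4.09 and 3.86 against 2.68, 3.40 and 2.45. Probe set 8129688 had 4.55, 4.90 and 5.45 log2 units in shERRalpha, against 3.96, 2.92 and 3.62 in shscrambled. The groups were separate at all of these, with log2 changes of 1.42, 1.04 and 1.46, the first against shscrambled levels under the 25th percentile. Some deposited values recur across the array: the value of 8129688 on shERRalpha replicate 1 is shared by 1804 probe sets, and 8129680 and 8129686 have the same value there, 2.67, which 384 probe sets share.

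At a pair of probe sets, shERRalpha replicate 1 parted from the other two shERRalpha arrays. Probe set 8129684 had 4.06 log2 units on that array but 6.68 and 6.07 on shERRalpha replicates 2 and 3, against 3.34, 4.43 and 4.61 in shscrambled. Its groups overlapped, and its log2 change was 1.47 (SE 0.72) with all arrays and ranged from 0.94 without shERRalpha replicate 2 to 2.25 without shERRalpha replicate 1. Probe set 8129686 had 2.67, 4.65 and 4.29 log2 units in shERRalpha, against 2.44, 2.31 and 1.96 in shscrambled, with a log2 change of 1.63 (SE 0.54) and a shscrambled mean under the 25th percentile. Over the whole run, 13, 15 and 12 of the 15 probe sets on shERRalpha arrays 1, 2 and 3 lay above all shscrambled arrays. The same held for 33.3%, 25.8% and 25.7% of all probe sets on these arrays. The 5 listed probe sets, chosen for being higher, are among those counted on each array.

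The change was uneven along the run. Places 1 to 12, 8129678 to 8129689, held every listed probe set, and all of them but 8129679 were at least 2-fold higher in shERRalpha. Probe set 8129679 had 3.11, 4.30 and 3.71 log2 units in shERRalpha, against 2.36, 3.79 and 3.22 in shscrambled, with overlapping groups and a log2 change of 0.58 (SE 0.48). That change ranged from 0.20 without shscrambled replicate 1 to 0.92 without shscrambled replicate 2.

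The last 3 probe sets of the run showed little difference. Probe set 8129690 had 3.35, 3.54 and 2.77 log2 units in shERRalpha, against 3.09, 3.24 and 2.64 in shscrambled, with overlapping groups and a log2 change of 0.23 (SE 0.33). Its levels were above the 25th percentile in both groups. Probe sets 8129691 and 8129692 lay below that percentile in both groups, with means of 1.99 and 1.29 log2 units in shERRalpha and 1.71 and 1.01 in shscrambled, so a change there could hardly be seen. At 8129691 the groups missed each other by 0.01 log2 units, and at 8129692 they overlapped. These 2 probe sets also hold the only 3 values of the run whose lost decimal mark could have been read either way.

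**Figure D2:**
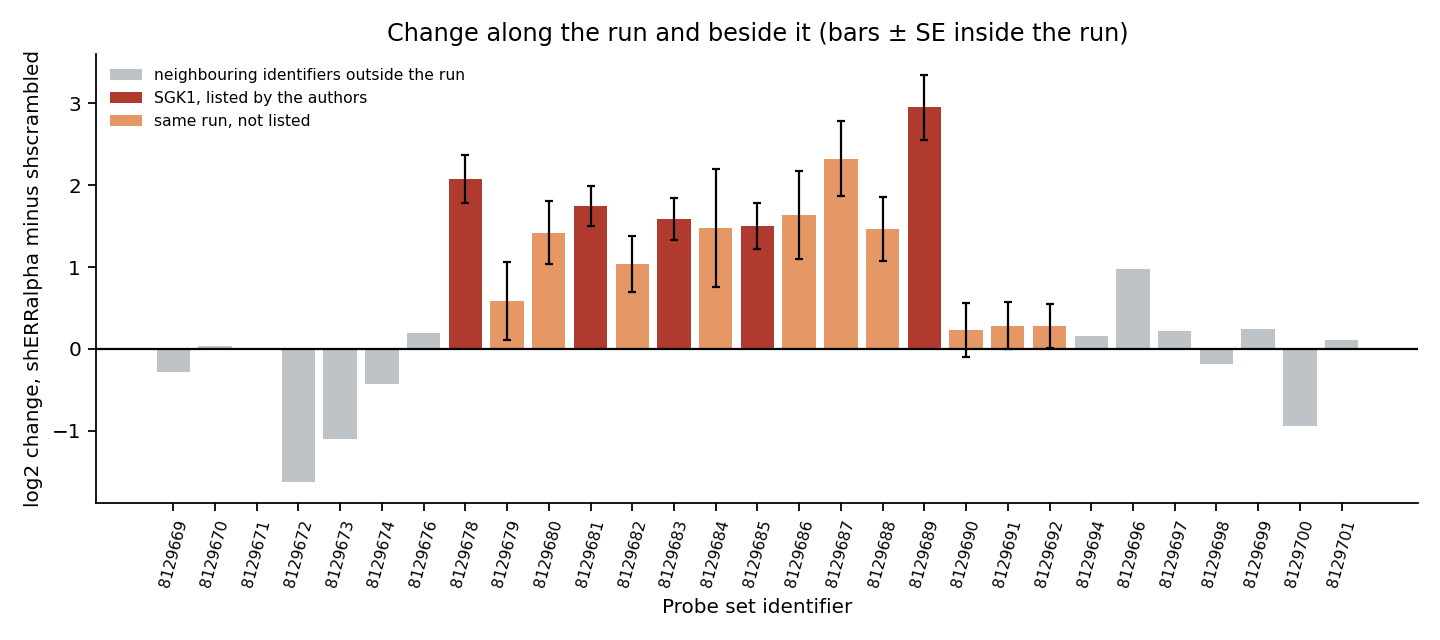
Log2 change, shERRalpha minus shscrambled (vertical axis), of the 15 probe sets of the SGK1 run and of the 7 probe sets on either side by identifier (horizontal axis); red bars are the probe sets listed under SGK1, orange bars the unlisted ones of the run, both with their SE, and grey bars the neighbours. The changes are 1.04 or more at 11 of the first 12 probe sets of the run, 0.58 at 8129679, and 0.23 to 0.28 at the last 3.

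Beside the run, the changes had no common direction. The 7 probe sets before it, which belong to other runs, had log2 changes of -1.63 to 0.19 with a median of -0.29, and none of them had every shERRalpha array above every shscrambled array. The 7 after it had changes of -0.94 to 0.97 with a median of 0.15, and 1 of them, 8129696, showed that separation. No probe set among these neighbours was listed or carries a gene name.

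The run as a whole was summarised by its median per array. It was 4.06, 4.65 and 4.29 log2 units in shERRalpha, against 3.09, 3.40 and 3.16 in shscrambled, without overlap, a separation that 6.66% of the 19182 runs of at least 3 probe sets shared. The means were 4.33 ± 0.30 and 3.22 ± 0.16 (SD, n = 3 each), a log2 change of 1.11 (SE 0.24), or 2.17-fold. The median change over these runs, a stand-in for genes, was -0.0018. A run median at least 2-fold higher in shERRalpha was found for 60 runs (0.313%), and 37 runs had a larger change than that of SGK1. The SGK1 run was chosen for the listed probe sets it holds. Its separation and its high place among the runs were therefore largely set in advance, and nothing is read from them. Leaving out the 3 probe sets with means below the 25th percentile, 8129680, 8129691 and 8129692, gave a log2 change of 1.48 (SE 0.33) for the run.

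**Figure D3:**
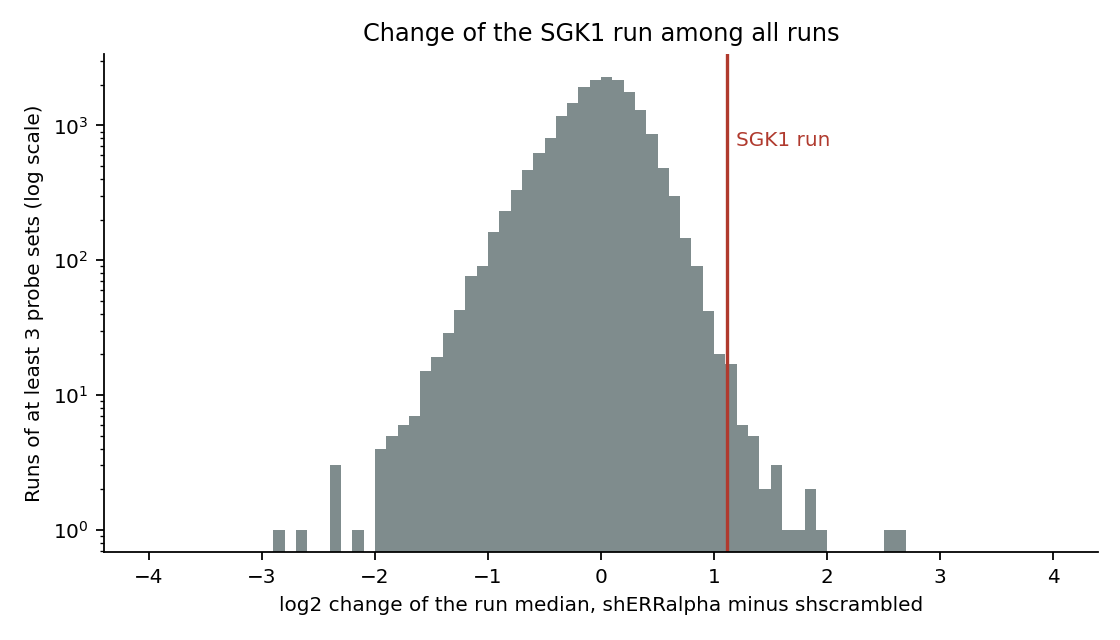
Number of runs of at least 3 consecutive probe sets (vertical axis, log scale) by the log2 change of their median per array, shERRalpha minus shscrambled (horizontal axis); the red line marks the SGK1 run at 1.11. Most runs lie near 0, and 37 of 19182 lie to the right of the line. The SGK1 run was chosen for its listed probe sets, so its place is a description.

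SGK1 is 1 of 12 genes listed as higher by 5 or more distinct probe sets. By the median of the listed probe sets it was the fifth of these, after DCLK1, NRP1, BIRC3 and SH3RF2 (10.1-fold, 7.74-fold, 5.65-fold and 3.54-fold) and before NAV3 (3.14-fold). By the change of the run median, NT5E, DICER1 and NAV3 (1.40, 1.23 and 1.18 log2 units) also stood above SGK1 (1.11). The shscrambled mean of DCLK1, 1.95 log2 units, was near background, so its fold is not exact. SGK1 and SH3RF2 lay within their spread of each other, with log2 changes of 1.79 and 1.82, as did SGK1 and NAV3, with 1.65 for NAV3 and SDs of 0.17 in shERRalpha and 0.27 in shscrambled. Each of these genes was selected for its difference on the same arrays.

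The genes with the profile most like that of SGK1 were sought among 119 genes listed by 3 or more distinct probe sets, of which 25 were listed higher and 88 lower. Likeness was the root mean square difference over the 6 arrays between the log2 levels relative to the shscrambled mean. The nearest were SH3RF2 (0.18 log2 units), NAV3 (0.20), CPA4 (0.24), NT5E (0.28) and XRCC4 (0.31), against a median of 2.23 over all candidates. Most candidates were listed lower, so this median is no yardstick for likeness among genes listed higher. SH3RF2 encodes a ubiquitin ligase with SH3 domains, NAV3 a microtubule-binding protein, CPA4 a carboxypeptidase, NT5E the ectonucleotidase CD73 and XRCC4 a factor of DNA end joining.

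On shERRalpha arrays 1, 2 and 3, SGK1 stood 1.78, 1.82 and 1.76 log2 units above its shscrambled mean, and SH3RF2 1.74, 1.72 and 2.01. XRCC4 stood 1.72, 1.69 and 2.42 above its own, so that it left the SGK1 profile mainly on shERRalpha replicate 3. NT5E stood 1.27, 1.44 and 1.70 log2 units above its mean, lower than SGK1 on each shERRalpha array. All 5 genes were listed as higher on these arrays, and a likeness over 6 arrays in 2 groups mostly reflects the size of that difference.

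**Figure D4:**
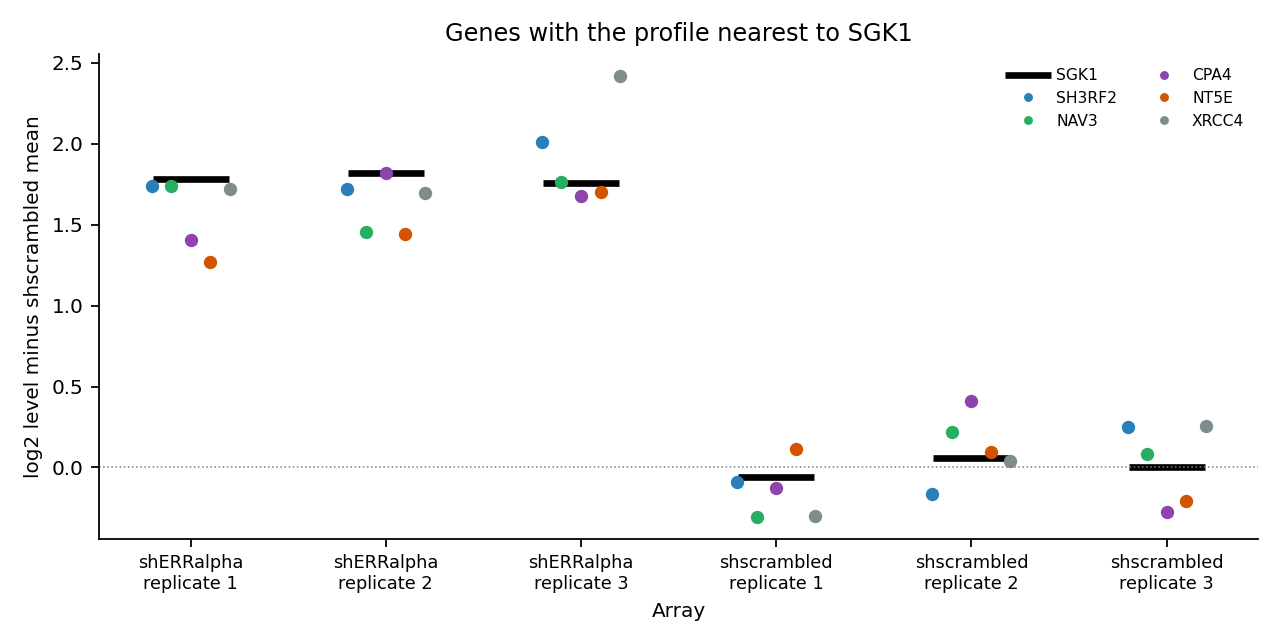
Log2 level minus the gene's own shscrambled mean (vertical axis) on each array (horizontal axis, shERRalpha left, shscrambled right) for SGK1 (black bars) and the 5 genes with the nearest profile (points). SGK1 lies at 1.76 to 1.82 on the shERRalpha arrays and within 0.06 of 0 on the shscrambled arrays.

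Around SGK1, 125 genes of 8 lists of related kinases, upstream signalling, hormone response, substrates, transport, degradation, FOXO targets and cell stress were looked up. Of these, 4 were listed higher (3.20%) and 10 lower (8.0%). The rough background is again the 2.86% of runs with a probe set listed higher and the 5.12% with one listed lower. It serves for these shares and for those of the single lists below, and nothing is read from the differences. A gene that is not listed carries no name in the files, so its level is not known here.

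Of the 6 SGK and AKT kinases, AKT2 was listed besides SGK1, and lower. AKT2, which takes part in insulin signalling, was listed by 1 probe set at 4.44 ± 0.30 log2 units in shERRalpha and 5.87 ± 0.20 in shscrambled (SD, n = 3 each), while the median of its run changed by -0.03. SGK2 and SGK3, the paralogues of SGK1, were not listed. None of the 20 genes of the upstream list, with the PI3-kinase subunits, PDPK1 and the mTORC2 members, was listed in either direction.

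Among 17 steroid receptors and glucocorticoid-induced genes, 2 were listed higher (11.8%, with SGK1 itself counted) and 3 lower (17.6%). The higher ones were SGK1 and ZBTB16, a transcriptional repressor, whose 1 listed probe set was at 3.39 ± 0.40 log2 units in shERRalpha and near background at 1.89 ± 0.07 in shscrambled. TSC22D3, which encodes the glucocorticoid-induced leucine zipper protein GILZ, was lower, at 3.46 ± 0.28 log2 units in shERRalpha and 5.64 ± 0.77 in shscrambled at 1 probe set, with a run change of -0.42. ERRFI1, an inhibitor of EGF receptor signalling, was 2.10-fold lower over 3 probe sets with a run change of -1.08. PDK4, an inhibitory kinase of the pyruvate dehydrogenase complex, was 6.33-fold lower over 2 probe sets and near background in shERRalpha. The receptors NR3C1 and NR3C2 were not listed.

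Downstream of the kinase, listed genes were few and mostly rested on 1 probe set. Of 22 substrates, 2 were listed, both lower (9.09%). Among them was PIKFYVE, a lipid kinase, at 0.53 log2 units in shERRalpha and 2.39 in shscrambled, both near background, with a run change of 0.06. NEDD4L, NDRG1, FOXO1 and FOXO3 were not listed. Of 23 channels and transporters, 2 were listed higher and 2 lower (8.7% each). KCNA5, a potassium channel, was at 3.64 ± 1.02 log2 units in shERRalpha and near background at 0.73 ± 0.16 in shscrambled. ATP1B1, the beta subunit of the sodium pump, was at 5.38 ± 0.08 log2 units in shERRalpha and 6.64 ± 0.40 in shscrambled, with a run change of -0.71. SLC2A4, the insulin-responsive glucose transporter, was 2.06-fold lower at its listed probe set with a run change of -0.03. The subunits of the epithelial sodium channel, SCNN1A, SCNN1B and SCNN1G, were not listed.

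Of 11 genes of SGK1 degradation, TSC22D3 alone was listed. Of 20 FOXO target genes, FBXO32, a muscle ubiquitin ligase, was listed higher at 1 probe set with a run change of -0.38. That probe set was at 2.70 ± 0.34 log2 units in shERRalpha and near background at 1.24 ± 0.18 in shscrambled. RBL2 of the same list, a pocket protein of the RB family, was 6.11-fold lower over 2 probe sets with a run change of -0.74. Of 13 genes of cell volume and stress, FOS, a subunit of the transcription factor AP-1, was listed lower, at 1.04 ± 0.44 log2 units in shERRalpha, near background, and 3.09 ± 0.48 in shscrambled, with a run change of -0.83. Apart from SGK1 itself, no member of these 8 lists had more than 3 listed probe sets.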

How the data were processed

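The deposited value table holds 1 log2 value per probe set and array. The submitters' processing notes name RMA as the authors' summary and normalisation; its version, the annotation and the build were not stated. Decimal marks were missing, so 7-digit strings were taken as at least 10 and the rest as below 10. For 90473 values (5.86%) both readings were possible, and the one nearer to the other arrays was used. The 159 probe sets with only such values were read as below 10. For 12 undecided probe sets of the authors' table, the reading that gave the deposited fold change was taken. Another 1269 of 257430 probe sets stayed undecided and were left out. Against the authors' deposited table, all 2122 fold changes (ratio of shERRalpha over shscrambled) agreed within 0.001 log2 units and all 2122 p-values within 1%. For the 12 settled by their fold change, that agreement in fold was set in advance. The number of value columns without a sample was 0.

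Only that table pairs probe sets with genes. Of its probe sets, 1948 matched a RefSeq transcript (GRCh38.p14), 103 a symbol and 29 a synonym, 9 kept the table's name and 33 had none. Some counted list members are not named. Changes and SEs come from limma 3.58.1 (R 4.3.3, lmFit and eBayes), fitted over all probe sets, or over run medians for summaries. eBayes draws each SE toward the spread of everything fitted together. The SE of the listed median is therefore larger than its own SDs alone would give. SGK1, the lists and the likeness rule (5 genes, each listed by 3 or more distinct probe sets) were chosen with earlier results of these data known. Code was tested on simulated data. Alternatives were a replicate block, each array left out, 2 normalisations, array weights, other summaries, tests and filters on dim probe sets.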

Additional observations from a re-analysis of the deposited data

How the results depend on the processing

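All 150 log2 changes of the 15 single probe sets under 10 alternatives stayed positive, which says little, since the gene was chosen for being higher. The listed probe sets of SGK1 changed by 1.79 log2 units as reported. Their change was 1.87 with quantile normalisation, 1.85 with arrays centred on their medians and 1.97 with the mean of the probe sets. These shifts exceed the spread between arrays (pooled SD) but lie within the SE of 0.20, and the direction stayed as it was. The run changed by 1.11 as reported, 1.37 with the mean, 1.47 as the median of the probe set changes and 1.48 above the 25th percentile. Leaving out 1 array gave 1.76 to 1.82 for the listed probe sets, 0.96 to 1.25 for the run and 0.78 to 1.26 for its unlisted probe sets. The deposited rule gave 695 probe sets higher, 513 to 906 with 1 array left out, 404 with an unequal-variance test and 270 above the 50th percentile. It gave 1427 lower, 909 without shscrambled replicate 1, 775 without shscrambled replicate 2, 820 with the unequal-variance test, 854 above the 50th percentile and 675 with a replicate block; in limma 18539 had an unadjusted p under 0.05, and 11875 above the 50th percentile. Of the SGK1 probe sets it took 5, from 4 without shERRalpha replicate 3 to 7 without shscrambled replicate 2, and 3 with the unequal-variance test (8129678, 8129681 and 8129683). With limma, 0 probe sets passed under each alternative tried, as with the equal-variance test.

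With a replicate block the rule gave 392 probe sets higher and took 2 of SGK1 (8129681 and 8129683), while the changes stayed at 1.79 (SE 0.21) and 1.11 (SE 0.21) by construction. Over all probe sets, same-numbered arrays hardly deviated together (correlations of deviations 0.07, 0.05 and 0.08), so the numbers were not taken as pairs. That holds for the whole table, and the SEs within the SGK1 run moved unevenly with the block. For the median of the unlisted probe sets the SE was 0.23 with the block and 0.29 without it. It fell from 0.48 to 0.28 at 8129679 and from 0.72 to 0.40 at 8129684. At 8129678 it rose from 0.29 to 0.31, and at 8129680 from 0.39 to 0.42. Counts of SGK1 probe sets that meet the rule, single probe set changes and counts of lower probe sets were added after the data were seen. With 3 arrays a group and single probe sets near background, small changes at the far end of the run could not be resolved.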

Other observations

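Repeated values are common in the deposited table and touch several SGK1 probe sets, listed ones among them. The values of the listed 8129689 on shscrambled arrays 1, 2 and 3 were shared by 344, 79 and 164 probe sets. Its values on shERRalpha arrays 1, 2 and 3 were shared by 28, 25 and 4. At 8129678, 8129681 and 8129685, each shscrambled value was shared by 10 to 25 probe sets. The 257430 probe sets had 79977 distinct values on shERRalpha replicate 1 and 87445 to 95823 on the other 5 arrays. The most frequent value of an array was shared by 6290 probe sets on shERRalpha replicate 1, 4597 on shERRalpha replicate 2, 1813 on shERRalpha replicate 3 and 3019 to 3557 on the shscrambled arrays. At SGK1 probe sets such as 8129682, 8129690, 8129691 and 8129692 each value on shERRalpha replicate 1 occurred once, whereas the value of 8129688 there occurred 1804 times. How the repeated values arose was not tested.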
